A study of Mus musculus with 14 samples.

Results

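The BCL2 family decides at the mitochondrial outer membrane whether a cell lives or dies, and 10 of its genes were followed here in splenic regulatory T cells: the survival genes Bcl2, Bcl2l1 and Mcl1, the pore-forming effectors Bax and Bak1, and the BH3-only genes Bcl2l11, Bbc3, Pmaip1, Bmf and Bid. The members were chosen with earlier results of these data known, and they are 10 of the 30284 genes to which reads were assigned. Messenger RNA had been sequenced from Foxp3+YFP+ regulatory T cells sorted from the spleen of C57/B6 mice. The talin KO group carried floxed Tln1 alleles (Tln1fl/flFoxp3cre/wt) and the control group wild-type ones (Tln1wt/wtFoxp3cre/wt), so all mice carried 1 Cre allele driven by the Foxp3 promoter. Foxp3 lies on the X chromosome, and Tln1 encodes talin-1, the adaptor that switches integrins to their active form. The 14 sequenced samples form 3 talin KO units and 4 control units of 2 samples each, and the counts of the 2 samples were summed. Ages are not in the labels, which also do not tie a unit to particular animals.

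Survival proteins of the family hold the effectors BAX and BAK in check, and BH3-only proteins, switched on by stress or by loss of growth factor signals, release them. Once free, the effectors open the outer mitochondrial membrane, and released cytochrome c starts the caspase cascade. In regulatory T cells, interleukin 2 signalling is known to sustain survival in part through this family, with MCL1 as a protein that these cells need and BIM, the product of Bcl2l11, as an opponent.

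Promoter sequence is shown for 3 members: Bcl2, which passed the gene test, Bax, which changed places with it in the order of TPM levels not corrected for GC content, and Bcl2l11, the most abundant BH3-only member in both groups. Each line gives the 250 bases before a RefSeq transcript start on build GRCm38.p6, read 5′ to 3′ on the strand of the gene. These are chr1:106714291-106714540 (minus strand) for Bcl2, chr7:45466899-45467148 (minus strand) for Bax and chr2:128125788-128126037 (plus strand) for Bcl2l11. Capitals mark matches on either strand to the GC box (GGGCGG) and, in Bcl2l11, to the FOXO letters GTAAACA.
Bcl2: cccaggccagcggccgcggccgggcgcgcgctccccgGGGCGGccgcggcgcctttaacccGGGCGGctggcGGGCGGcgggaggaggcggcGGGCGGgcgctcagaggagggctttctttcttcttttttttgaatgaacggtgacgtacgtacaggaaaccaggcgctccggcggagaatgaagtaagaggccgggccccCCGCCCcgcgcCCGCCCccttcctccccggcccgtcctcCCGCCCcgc
Bax: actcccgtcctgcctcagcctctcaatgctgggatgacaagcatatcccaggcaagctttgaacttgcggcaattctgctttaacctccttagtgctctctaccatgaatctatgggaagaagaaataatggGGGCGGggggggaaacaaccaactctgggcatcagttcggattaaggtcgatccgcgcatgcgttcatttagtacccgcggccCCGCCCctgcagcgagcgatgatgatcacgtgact
Bcl2l11: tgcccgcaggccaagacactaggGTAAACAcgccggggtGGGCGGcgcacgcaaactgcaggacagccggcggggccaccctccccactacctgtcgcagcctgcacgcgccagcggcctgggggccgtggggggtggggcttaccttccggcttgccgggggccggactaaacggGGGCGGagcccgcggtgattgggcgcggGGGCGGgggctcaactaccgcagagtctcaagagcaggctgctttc

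The Bcl2 window held 7 GC boxes at 74.8% G and C, the Bax window 2 at 54.0%, and the Bcl2l11 window 3 at 72.0%, against a median of 52.4% G and C over all 32851 promoters of the table. A GC box was present in 32.7% of those promoters, and the FOXO letters in 3.17%. The STAT5 letters TTCNNNGAA (N, any base) and the cyclic AMP response element TGACGTCA were searched on both strands too and occurred in none of the 16 windows of the 9 matched members; they were present in 7.02% and 1.55% of all promoters. The p53 and NF-kB motifs were searched too and are not marked. A p53 match lay in the Bax window and in a Bmf window (7.13% of all promoters hold one), NF-kB matches lay in a Bcl2l1 and a Bbc3 window (7.25% of all promoters), and a further match to the FOXO letters lay in a Bbc3 window. A match is a run of letters and not a measured site, and the absence of one speaks only of these windows.

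Before the members, the labels and the purity of the units were checked. Tln1 was at 788, 901 and 1014 CPM (counts scaled to a common library total) in talin KO units 1 to 3, against 634, 543, 847 and 649 CPM in control units 1 to 4, so the units labelled talin KO were not the lower ones in Tln1 summed over its transcripts (log2 fold change 0.43 ± 0.18 (SE), edgeR adjusted p = 0.126). Every direction given here is that of units labelled talin KO against units labelled control. Foxp3 lay at 370, 514 and 401 CPM in talin KO units and at 468, 324, 478 and 406 CPM in control units, and Cd4 at 593, 569.7 and 507 CPM in talin KO units and at 568, 623, 687 and 630.0 CPM in control units, so the defining transcripts of regulatory T cells were present in every unit. Cd3e, a T cell receptor chain, was at 236, 235 and 194 CPM in talin KO units and at 259.6, 361, 337 and 296 CPM in control units (log2 fold change -0.50 ± 0.15 (SE), edgeR adjusted p = 0.0532), and 2 of 7 regulatory T cell markers fell, Il2ra and Ikzf2, although leaving out any unit ended the call of Ikzf2 (edgeR adjusted p between 0.0552 and 0.121). Cd8a was at 10.5, 10.2 and 3.37 CPM in talin KO units and at 4.64, 2.30, 2.42 and 3.96 CPM in control units. Although the sort gated on Foxp3 and YFP, transcripts of other cells moved with the groups: 7 of 11 B cell markers rose, their summed level lying between 188 and 420.4 CPM in talin KO units and between 37.6 and 105 CPM in control units. Of 11 neutrophil markers 10 rose, with sums of 275 to 1632 CPM in talin KO units and 2.00 to 15.7 CPM in control units. The myeloid list (3 of 11 rose) summed to 234 to 613 CPM in talin KO units and 12.6 to 127 CPM in control units. The dendritic list (3 of 8 rose) summed to 79.4 to 107 CPM in talin KO units and 29.5 to 41.3 CPM in control units, and the cytotoxic list (5 of 10 rose) to 60.4 to 132 CPM in talin KO units and 35.7 to 45.9 CPM in control units. The erythroid and platelet list (1 of 9 tested rose) summed to 76.5 to 2902 CPM in talin KO units and 7.09 to 52.1 CPM in control units, and talin KO unit 3 held the highest erythroid and neutrophil sums. No marker of these lists was at 0 in every unit of a group. Reads assigned to genes numbered 38811489 to 56109143 in talin KO units and 12851425 to 39214264 in control units. The part that other cells and depth have in the results below was not tested beyond the alternative fits named beside them, and in bulk samples fewer cells of a type and less RNA per cell cannot be told apart.

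Of the 10 members 1 fell, Bcl2, and 0 rose by edgeR's quasi-likelihood test at a false discovery rate of 0.05. Among all 15775 genes tested 13.6% passed, 6.52% lower and 7.07% higher, so 1 of 10 is close to the background. At an unadjusted p under 0.05 in edgeR the members counted 3 higher and 1 lower, where 17.6% of all genes were higher and 15% lower. DESeq2 called 2 higher and 1 lower, against 11.7% and 10.8% of all genes, and limma-voom 1 higher and 1 lower, against 7.91% and 6.87%. The median log2 fold change of the 10 members was 0.34, against 0.06 over all genes tested. With an offset for GC content and length it was 0.03, against 0.05 over all genes. By role the medians were -0.39 for the 3 survival genes, 0.35 for the 2 effectors and 0.68 for the 5 BH3-only genes, and with the offset they were -0.42, 0.03 and 0.46. In 3 of the 10 members the CPM values of the groups did not overlap, a share close to the 30.8% of all genes tested for which this held.

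Bcl2, the survival protein after which the family is named, was the member that fell. It lay on GRCm38 chromosome 1 from 106538178 to 106714274 on the minus strand and was at 398, 406 and 317 CPM in talin KO units 1 to 3, against 614, 549, 577 and 677 CPM in control units 1 to 4. Every talin KO unit lay below every control unit, with talin KO unit 3 the lowest. The means were 374 ± 49.3 CPM in talin KO units and 604 ± 55.1 CPM in control units (SD, n = 3 and n = 4), a level 1.62-fold lower in talin KO units (log2 fold change -0.69 ± 0.15 (SE), edgeR adjusted p = 0.0179). Its call was lost without talin KO unit 3 (-0.59, edgeR adjusted p = 0.0524), the unit with the highest neutrophil and erythroid sums, and without control unit 4 (-0.64, edgeR adjusted p = 0.0601). It was kept with the GC and length offset (-0.52, edgeR adjusted p = 0.0186), and lost with the mean level of the B cell and myeloid lists as a covariate (-0.91, edgeR adjusted p = 0.323), a fit in which 7 genes of all passed. The sums of both lists did not overlap between the groups. Group and the level of those cells can therefore hardly be told apart in that fit. An antisense gene, D630008O14Rik, overlaps exons of Bcl2, and reads there cannot be told apart; 0.637% of the 31-base words of Bcl2 occur in another gene.

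The transcript Bcl2-201 (2 exons, 7191 bases) made up 96.7% of the TPM of Bcl2, a level scaled by transcript length. It was at 44.9, 51.2 and 34.7 TPM in talin KO units, against 73.9, 62.8, 77.2 and 78.5 TPM in control units, again without overlap. Over all transcripts tested with limma, its difference of -0.74 ± 0.18 (SE) in log2(TPM + 1) missed the threshold (adjusted p = 0.0767). At a mean TPM of at least 1, 20 member transcripts each held at least 10% of their gene. Of these 0 passed that test, where 2.33% of the 34063 transcripts tested did. In limma 4 were at an unadjusted p under 0.05, and the share of all transcripts at that limit was not computed. Among the 4, those of Bcl2 and Bak1 were lower in talin KO units, and those of Bcl2l11 went in opposite directions. The genes whose profile over the 7 units was most like that of Bcl2 among 9210 candidates were Dpp4, Ddx6 and Prkca, with root mean square differences of 0.05, 0.06 and 0.07 in centred log2 CPM.

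Mcl1, a survival protein with a short life in the cell, was the most abundant member per length in both groups. It was at 763, 669.7 and 493 CPM in talin KO units and at 815, 956, 673 and 931 CPM in control units. Talin KO unit 1 lay above control unit 3, so the groups overlapped in CPM, and with a log2 fold change of -0.39 ± 0.19 (SE) the gene missed the threshold (edgeR adjusted p = 0.184). In TPM they did not overlap, with 186, 183 and 117 TPM in talin KO units and 213, 234, 194 and 232 TPM in control units. With the effective-length offset the log2 fold change of Mcl1 was -0.43 (edgeR adjusted p = 0.188). Bcl2l1, which encodes BCL-XL, was at 26.2, 25.1 and 29.0 CPM in talin KO units and at 25.3, 33.0, 29.2 and 27.0 CPM in control units. The CPM ranges overlapped (log2 fold change -0.10 ± 0.15 (SE), edgeR adjusted p = 0.688). Per length, with all transcripts summed, the groups did not overlap. The gene was at 17.1, 14.3 and 16.4 TPM in talin KO units and 21.2, 17.5, 24.8 and 20.1 TPM in control units. Its most abundant form, protein-coding and of 2417 bases, had means of 7.48 TPM in talin KO units and 7.42 TPM in control units. The difference of that form in log2(TPM + 1) was 0.03 (limma adjusted p = 0.961). A coding form of 472 bases was at 3.18, 0 and 1.49 TPM in talin KO units. In control units it was at 8.655, 0.227, 7.80 and 7.22 TPM, with overlap (limma adjusted p = 0.403). The log2 fold change of the gene was -0.35 with the effective-length offset (edgeR adjusted p = 0.219) and -0.27 with the GC and length offset (edgeR adjusted p = 0.181).

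Bax, whose product forms pores in the outer membrane, lay without overlap but did not pass. It was at 48.9, 51.0 and 60.6 CPM in talin KO units, against 36.5, 42.0, 41.1 and 42.3 CPM in control units, with talin KO unit 3 the highest. The means were 53.5 ± 6.24 CPM in talin KO units and 40.5 ± 2.70 CPM in control units (SD), and the log2 fold change was 0.40 ± 0.13 (SE, edgeR adjusted p = 0.0628). DESeq2 called it (adjusted p = 0.0457), as did edgeR with upper-quartile scaling (adjusted p = 0.0475). With the GC and length offset its sign turned (-0.02, edgeR adjusted p = 0.945). Bax has a GC content of 59.2%, and genes over 55% GC had a median log2 fold change of 0.38, against -0.58 for genes under 40%.

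Bak1, the other effector, was at 35.7, 35.0 and 54.3 CPM in talin KO units and at 28.1, 34.6, 38.6 and 34.5 CPM in control units. Talin KO unit 3 lay above all control units and the other two within their range (log2 fold change 0.29 ± 0.19 (SE), edgeR adjusted p = 0.301). Its log2 fold change was 0.06 without talin KO unit 3 and 0.07 with the GC and length offset. Exons of Bak1 overlap those of Ggnbp1 on the other strand, 11.2% of its 31-base words occur in another gene, and the kit was not stranded, so reads of both genes cannot be told apart there.

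**Figure D1:**
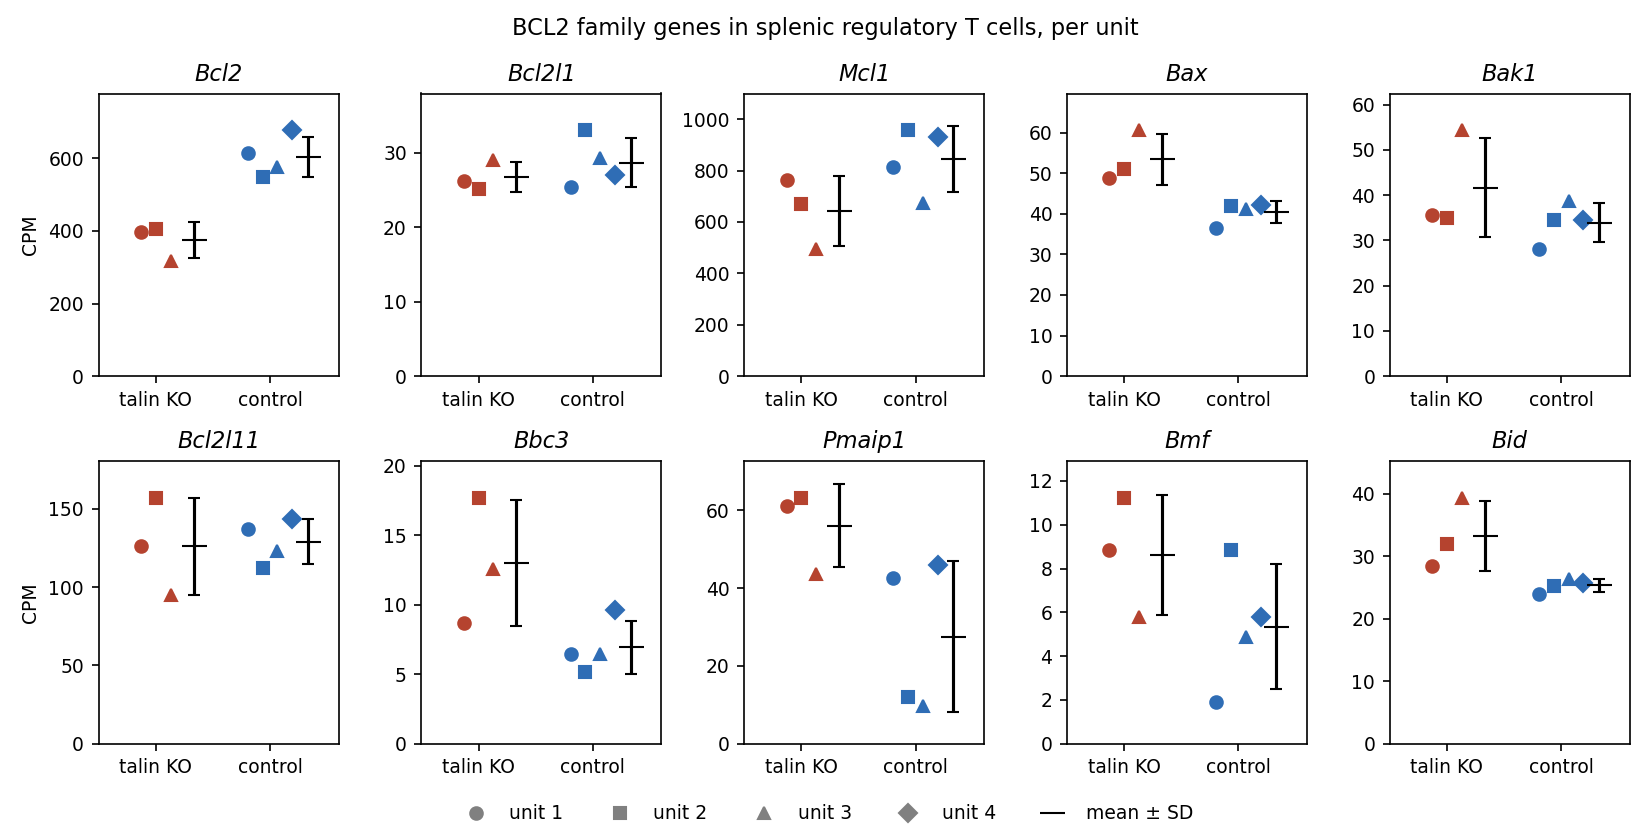
CPM of the 10 members in each unit, talin KO in red and control in blue, with 1 symbol per unit number, the mean and the SD; each panel has its own linear axis from 0. Bcl2 lies lower in all 3 talin KO units, Bax and Bid lie higher in all 3, and the other 7 members overlap.

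The BH3-only members gave 0 calls of 5 by edgeR, where 13.6% of all genes passed. At an unadjusted p under 0.05 in edgeR 2 were higher and 0 lower, against 17.6% and 15% of all genes. DESeq2 called 1 higher, against 11.7% of all genes, and limma-voom 1 higher, against 7.91%. Bbc3 encodes PUMA, a strong activator of death and a p53 target. It was at 8.68, 17.7 and 12.6 CPM in talin KO units, against 6.45, 5.18, 6.47 and 9.60 CPM in control units, where control unit 4 reached above talin KO unit 1. The log2 fold change was 0.91 ± 0.30 (SE, edgeR adjusted p = 0.0700), and it passed in DESeq2 (adjusted p = 0.0290) and in edgeR without talin KO unit 1 (1.12, adjusted p = 0.0485). It was 0.62 without talin KO unit 2 (edgeR adjusted p = 0.245) and 0.71 with the GC and length offset (edgeR adjusted p = 0.113). Behind these values stood 82 to 711 reads a unit, and GC content was 66.0%, the highest of the members.

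Bid, which caspase 8 cleaves to link death receptors to mitochondria, was at 28.4, 31.9 and 39.4 CPM in talin KO units, against 24.0, 25.3, 26.4 and 25.7 CPM in control units. All talin KO units lay above all control units in CPM, but per length the groups overlapped, with 15.9, 21.04 and 21.1 TPM in talin KO units and 18.7, 11.5, 15.3 and 18.8 TPM in control units. Its log2 fold change was 0.39 ± 0.15 (SE, edgeR adjusted p = 0.109), and it was 0.25 without talin KO unit 3. Bid overlaps Bcl2l13 on the other strand, and 16.9% of its 31-base words occur in another gene.

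Pmaip1 encodes NOXA, which binds MCL1, and was the member that varied most among control units. It was at 61.2, 63.2 and 43.7 CPM in talin KO units, against 42.7, 11.9, 9.61 and 46.0 CPM in control units. Control units 1 and 4 lay beside talin KO unit 3, and control units 2 and 3 far below. The log2 fold change was 1.04 ± 0.64 (SE, edgeR adjusted p = 0.321), 1.64 by limma-voom (adjusted p = 0.0429), and -1.56 with the B cell and myeloid covariate. That covariate fit could hardly separate group from those cells. Bmf, which responds to loss of cell attachment and to cytoskeletal change, was at 8.83, 11.2 and 5.79 CPM in talin KO units and at 1.89, 8.84, 4.87 and 5.79 CPM in control units, with overlap (0.68 ± 0.45 (SE), edgeR adjusted p = 0.321). Bmf was at 0.41 without control unit 1 and at 0.43 with the effective-length offset. In the same covariate fit it was at 3.45 (edgeR adjusted p = 0.264). Bmf was the least abundant member, with 24 to 440 reads a unit.

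**Figure D2:**
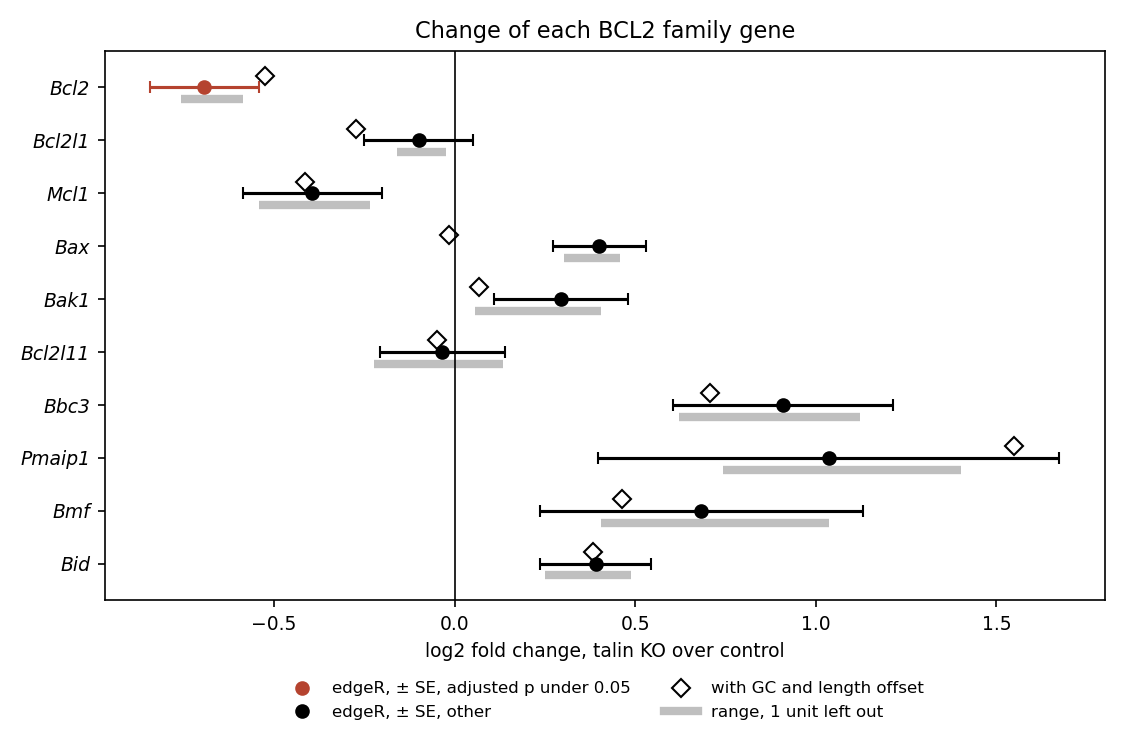
Log2 fold change of each member, talin KO over control (linear axis), with the SE from edgeR, the value with the GC and length offset as an open diamond, and the range over the 7 fits that each left out 1 unit as a grey bar. Bcl2 at -0.69 is the member past the threshold (red), and Bax lies at 0.40, or at -0.02 with the offset.

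Bcl2l11, the gene of BIM, was at 126, 157 and 95.2 CPM in talin KO units and at 137, 112, 123 and 144 CPM in control units. Talin KO units were both the highest and the lowest, and the log2 fold change was -0.03 ± 0.17 (SE, edgeR adjusted p = 0.913). The transcript values are given apart, as no difference between forms was tested. The long protein-coding form Bcl2l11-205 (5036 bases) was at 13.5, 14.4 and 10.03 TPM in talin KO units, against 16.6, 17.8, 19.1 and 16.4 TPM in control units, without overlap. Its difference of -0.45 ± 0.19 (SE) in log2(TPM + 1) missed the threshold (limma adjusted p = 0.234).

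All other transcripts of Bcl2l11 summed to 22.8, 48.9 and 17.5 TPM in talin KO units and to 24.1, 2.09, 12.5 and 26.2 TPM in control units. They made up 62.8%, 77.3% and 63.6% of the gene in talin KO units and 59.2%, 10.5%, 39.5% and 61.5% in control units. Control units 2 and 3, low for Pmaip1, were also those low for these forms, and they were the most deeply read control units (20863157 and 39214264 reads in genes, against 12851425 and 13458684 in control units 1 and 4). The 13 genes of the stress and dissociation list summed to 4459, 5575 and 6950.1 CPM in talin KO units and to 3540.1, 2084, 1925 and 3906 CPM in control units, where units 2 and 3 were again the lowest. Of those 13 genes 4 rose, Egr1 (log2 fold change 1.31), Ier2 (1.34) and Atf4 (0.99) among them. The part of depth or of handling in these forms was not tested.

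**Figure D3:**
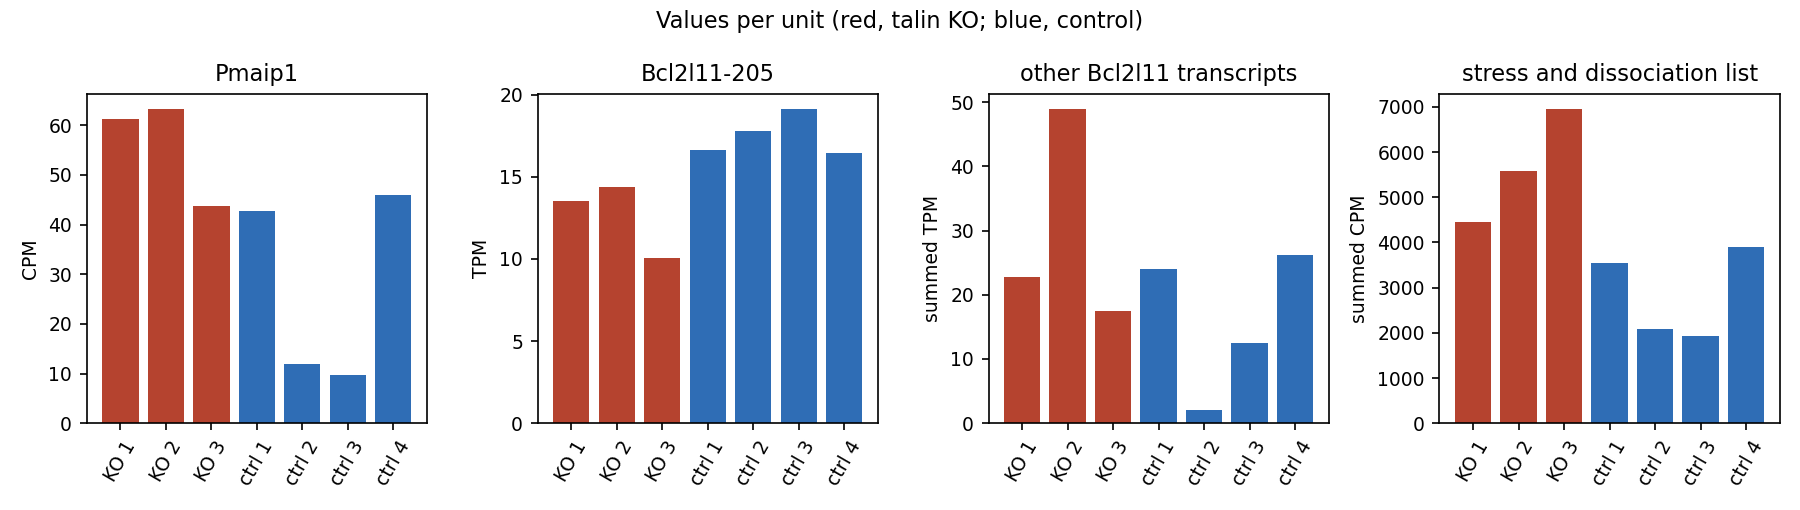
Pmaip1 (CPM), Bcl2l11-205 (TPM), all other Bcl2l11 transcripts (summed TPM) and the stress and dissociation list (summed CPM) in each unit, talin KO in red left of control in blue, on linear axes from 0. Control units 2 and 3 hold the lowest bar in the first, the third and the fourth panel, and the 3 talin KO units the lowest bars in the second.

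The order of levels was compared per length, in TPM, as a description. Gene TPM counts all transcripts, among them forms not annotated as protein-coding. These include a nonsense-mediated decay form with 63.9% of the TPM of Bak1, a retained-intron form with 46.8% of Bbc3 and a processed transcript with 23.9% of Bcl2l1. In talin KO units the order of means was Mcl1 (162 ± 39.0 TPM), Bax (65.7 ± 6.48), Bcl2 (45.5 ± 8.78), Bcl2l11 (42.3 ± 18.6), Bid (19.3 ± 2.98), Pmaip1 (19.0 ± 4.73), Bak1 (18.1 ± 3.94), Bcl2l1 (15.9 ± 1.45), Bbc3 (9.74 ± 4.50) and Bmf (2.95 ± 0.79). In control units it was Mcl1 (218 ± 18.8 TPM), Bcl2 (75.3 ± 7.97), Bax (51.7 ± 4.71), Bcl2l11 (33.7 ± 10.4), Bcl2l1 (20.9 ± 3.01), Bak1 (19.3 ± 2.48), Bid (16.1 ± 3.45), Pmaip1 (9.50 ± 6.58), Bbc3 (5.16 ± 1.90) and Bmf (2.20 ± 0.34). Mcl1 led in all 7 units. Bax lay above Bcl2 in 3 of 3 talin KO units, and Bcl2 above Bax in 4 of 4 control units, with no overlap of the 2 genes in either group. These TPM were not corrected for GC content, which is 59.2% for Bax and 46.2% for Bcl2. The log2 ratio of Bax to Bcl2 had a mean of -0.54 in control units. The log2 fold changes of the 2 genes differed by 1.09 without and by 0.51 with the GC and length offset. Whether the change of places holds with that offset was not tested. In talin KO units Bcl2 and Bcl2l11 overlapped, as did each neighbouring pair from Bid to Bbc3; in control units each neighbouring pair from Bcl2l11 to Bbc3 overlapped. The opposite sign of TPM and CPM was seen in 2 members: the mean TPM of Bak1 was lower and that of Bcl2l11 higher in talin KO units while their CPM changes pointed the other way. With an offset for effective transcript length their log2 fold changes were -0.07 for Bak1 and 0.33 for Bcl2l11, and neither passed (edgeR adjusted p = 0.8545 for Bak1 and 0.509 for Bcl2l11).

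**Figure D4:**
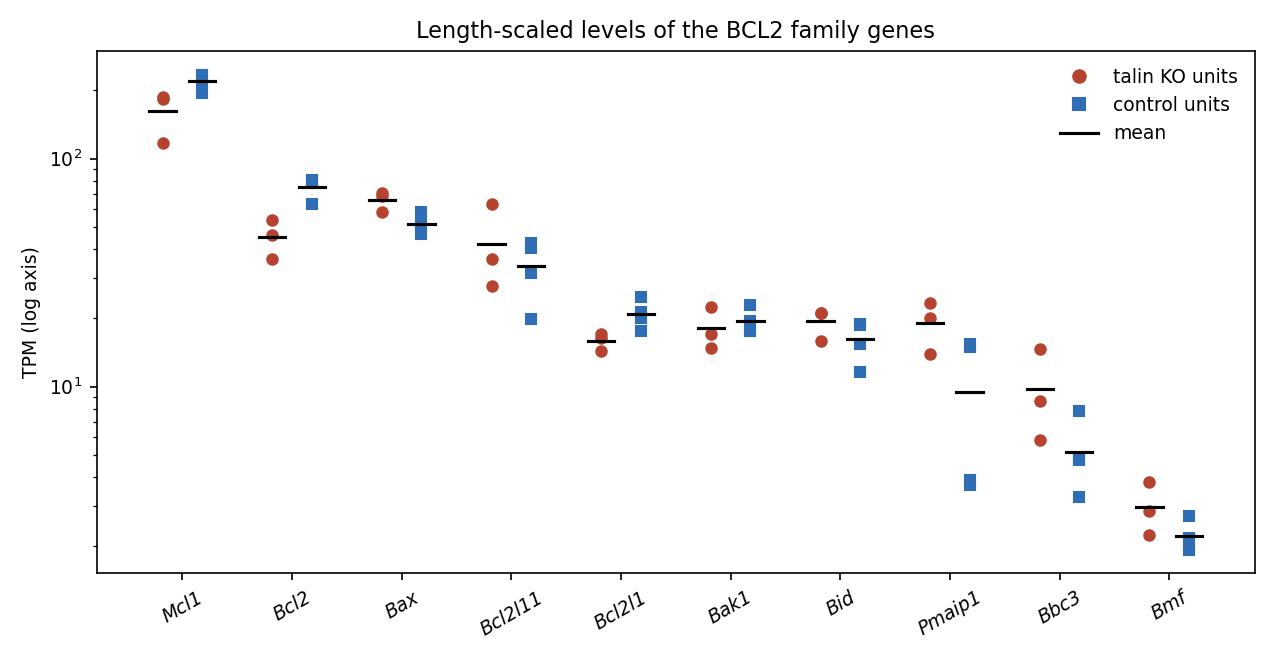
TPM of the 10 members on a log axis, sorted by the control mean, with each unit as a point (talin KO, red circles, left; control, blue squares, right) and the mean as a bar. Mcl1 leads in both groups, and Bax and Bcl2 change places between 65.7 and 45.5 TPM in talin KO units and 51.7 and 75.3 TPM in control units. The TPM were not corrected for GC content.

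Within a unit, 5 of 6 ratios of pro-death genes to Bcl2 lay higher in all talin KO units than in any control unit, given with no test. The same held for 54.2% of all 15774 other genes tested, so 5 of 6 is read against that share. The ratio of Bid, looked at afterwards, did not overlap over Bcl2 and did overlap over Mcl1. The log2 ratio of Bax to Bcl2 was 0.33, 0.35 and 0.96 in talin KO units and -0.74, -0.33, -0.45 and -0.64 in control units. Without GC correction Bax and Bcl2 differed by 1.09 in their log2 fold changes, and by 0.51 with the GC and length offset. The log2 ratio of Bcl2l11 to Bcl2 was -0.36, 0.23 and -0.40 in talin KO units and -0.94, -1.68, -1.33 and -0.92 in control units. Neither overlapped between groups, nor did the ratios of Bbc3, Pmaip1 and Bmf to Bcl2, and that of Bak1 did overlap. The Bcl2l11 ratio counts all transcripts of the gene. For Bcl2l11-205 alone the groups overlapped: control unit 2 (17.8 TPM, with Bcl2 at 63.5 TPM) had a higher ratio than talin KO unit 2 (14.4 TPM, with Bcl2 at 53.8 TPM). Over Mcl1, 3 of the 6 ratios lay higher in talin KO units without overlap, against 20% of all other genes. They were those of Bax (-1.67, -1.42 and -0.73 in talin KO units, against -2.19, -2.21, -1.74 and -2.17 in control units), Bcl2l11 and Pmaip1. For Bcl2l11 the gap was narrow, with a lowest value of -2.36 in talin KO units and a highest of -2.39 in control units. For Bcl2l11-205 alone over Mcl1 the groups overlapped. Control unit 3 (19.1 TPM, with Mcl1 at 194 TPM) had a higher ratio than talin KO unit 1 (13.5 TPM, with Mcl1 at 186 TPM). The ratios over Bcl2 share its level and do not count as separate observations.

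**Figure D5:**
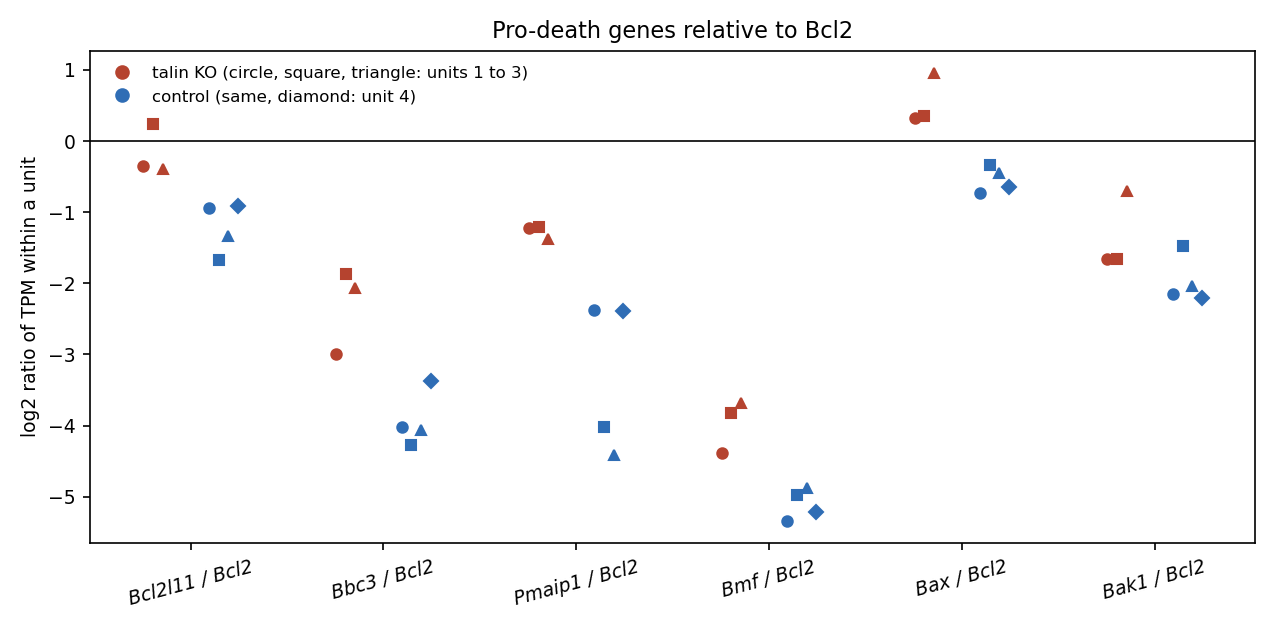
Log2 ratio of the TPM of 6 pro-death genes to that of Bcl2 within each unit, talin KO in red left of control in blue, on a linear axis. No GC correction was made. The Bax to Bcl2 ratio is above 0 in all 3 talin KO units and below 0 in all 4 control units, and only the Bak1 ratio overlaps; 54.2% of all other genes also lie higher relative to Bcl2 without overlap.

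The rest of the family gave no call. Of 13 other family genes tested 0 passed the edgeR test in either direction, where 13.6% of all genes passed (2 lower and 0 higher at an unadjusted p under 0.05, DESeq2 2 lower, limma-voom 0). Their median log2 fold change was 0.25, and Bcl2l10 and Bok were below the filter. The A1 genes encode further survival proteins of immune cells. Bcl2a1b had a log2 fold change of -0.81 ± 0.25 (SE, edgeR adjusted p = 0.0590), but between 79.6% and 89.1% of the 31-base words of Bcl2a1a, Bcl2a1b and Bcl2a1d occur in another gene. Summed, the A1 genes were at 31.7, 21.1 and 14.9 CPM in talin KO units and at 39.96, 38.4, 26.0 and 41.4 CPM in control units, where control unit 3 lay below talin KO unit 1.

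Downstream of the family, 2 of 19 apoptosome, caspase and inhibitor genes fell and 0 rose (1 higher at an unadjusted p under 0.05, 1 by DESeq2 and 0 by limma-voom). By edgeR 6.52% of all genes fell and 7.07% rose. Xiap, an inhibitor of caspases, was at 159, 143 and 108 CPM in talin KO units, against 279.6, 211, 186 and 239 CPM in control units (log2 fold change -0.74 ± 0.18 (SE), edgeR adjusted p = 0.0264). Casp8, the caspase of death receptors and the protease that cleaves BID, was at 209, 219 and 159 CPM in talin KO units, against 256, 315, 279 and 295 CPM in control units (-0.55 ± 0.15 (SE), edgeR adjusted p = 0.0369). Both genes lay without overlap. With the GC and length offset Xiap was at -0.03 (edgeR adjusted p = 0.867) and Casp8 at -0.37 (edgeR adjusted p = 0.0921). Over the fits with 1 unit left out Xiap passed in 4 of 7 and lost its call without talin KO unit 2, talin KO unit 3 or control unit 4 (adjusted p between 0.0239 and 0.0744) and Casp8 in 1 of 7, the one without control unit 1 (adjusted p between 0.0407 and 0.105).

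Among 20 tested partners and modifiers of the family 2 fell and 0 rose (3 higher at an unadjusted p under 0.05, 3 by DESeq2, 0 by limma-voom). The share of all genes that fell was 6.52%. The 2 were Dynll2 (-0.41, edgeR adjusted p = 0.0476), a dynein light chain that tethers BMF, and Usp9x (-0.46, edgeR adjusted p = 0.0452), a deubiquitinase of MCL1. Dynll2 passed in 0 of 7 and Usp9x in 1 of 7 fits that left out a unit, the one without control unit 3, and the sign of Usp9x turned with the GC and length offset (0.11).

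Inputs to the family were followed by lists. Of 23 genes of survival cytokine signalling 4 fell and 0 rose, with a median log2 fold change of -0.11. At an unadjusted p under 0.05 in edgeR the list had 4 higher and 6 lower. DESeq2 called 2 higher and 6 lower, and limma-voom 0 higher and 4 lower. Among all genes 6.52% fell and 7.07% rose by edgeR. Il2ra, the high-affinity interleukin 2 receptor chain, was at 404, 399.8 and 316 CPM in talin KO units, against 692, 745, 727 and 659 CPM in control units, without overlap (-0.92 ± 0.15 (SE), edgeR adjusted p = 0.0055). Socs1 (-0.83, edgeR adjusted p = 0.0195) and Socs2 (-0.92, edgeR adjusted p = 0.0159) fell as well, and so did Pik3r1 (-0.44, edgeR adjusted p = 0.0481), a regulatory subunit of PI3 kinase. Of the same list Cish (-0.28, edgeR adjusted p = 0.289), Pim1 (0.50, edgeR adjusted p = 0.0732), Myc (0.002, edgeR adjusted p = 0.995) and Stat5a (0.40, edgeR adjusted p = 0.0532) missed the threshold. Il2ra passed in 7 of 7 fits that left out a unit. With the GC and length offset Pik3r1 was at -0.15 (edgeR adjusted p = 0.347), while Il2ra, Socs1 and Socs2 passed. Socs1 lost its call without talin KO unit 1 or control unit 4 and Socs2 without talin KO unit 2 or control unit 4 (highest adjusted p 0.0580 and 0.0539), and Pik3r1 passed in 1 of 7, the one without talin KO unit 1 (highest adjusted p 0.144).

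Of 17 FOXO genes and their targets 4 rose and 0 fell, where 7.07% of all genes rose and 6.52% fell. Their median log2 fold change was 0.01. In edgeR 5 were higher and 0 lower at an unadjusted p under 0.05. DESeq2 called 4 higher and 0 lower, and limma-voom 3 higher and 0 lower. Irs2, an adaptor of insulin signalling, was at 27.7, 44.5 and 33.4 CPM in talin KO units, against 8.57, 4.79, 8.17 and 12.8 CPM in control units (2.04 ± 0.30 (SE), edgeR adjusted p = 0.00449). Klf2, a transcription factor of T cell quiescence and trafficking, was at 437, 660.2 and 447 CPM in talin KO units, against 224, 209.5, 210.2 and 326 CPM in control units (1.09 ± 0.21 (SE), edgeR adjusted p = 0.0110). Gadd45a (1.11, edgeR adjusted p = 0.0122) and Tsc22d3 (0.64, edgeR adjusted p = 0.0466) rose too, Tsc22d3 in 1 of 7 fits that left out a unit, the one without control unit 1. With the GC and length offset Klf2 missed the threshold (0.85, edgeR adjusted p = 0.0578), and Irs2, Gadd45a and Tsc22d3 passed. Bcl2l11, Bbc3 and Bcl6 are known FOXO targets as well, and none of these passed in edgeR.

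Of 22 tested p53 genes and targets, Bax, Bbc3 and Pmaip1 apart, 3 rose and 3 fell, with a median log2 fold change of -0.02. DESeq2 called 5 higher and 5 lower, and limma-voom 3 higher and 4 lower. By edgeR 7.07% of all genes rose and 6.52% fell. Cdkn1a, the p21 cell cycle inhibitor, was at 3.52, 4.54 and 7.49 CPM in talin KO units, against 1.26, 0.977, 0.400 and 2.21 CPM in control units (2.14 ± 0.54 (SE), edgeR adjusted p = 0.0293). Plk3 (1.08, edgeR adjusted p = 0.0363) and Gtse1 (2.14, edgeR adjusted p = 0.0390) also rose. Ccng1 (-0.74, edgeR adjusted p = 0.0101), Trp53inp1 (-0.92, edgeR adjusted p = 0.0134) and Rrm2b (-0.71, edgeR adjusted p = 0.0268) fell. Ccng1 and Trp53inp1 passed in 7 of 7 fits that left out a unit, Cdkn1a in 4 (all but those without talin KO unit 2, talin KO unit 3 and control unit 2), Rrm2b in 3 (without talin KO unit 1, control unit 1 and control unit 3), Gtse1 in 2 (without talin KO units 1 and 2) and Plk3 in 2 (without talin KO unit 1 and control unit 1). Their highest adjusted p over these fits was between 0.0721 for Rrm2b and 0.118 for Gtse1, whose log2 fold change ranged between 1.16 and 2.48. With the GC and length offset none of the 6 passed (adjusted p from 0.0578 for Cdkn1a to 0.612 for Ccng1).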

How the data were processed

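Each of the 14 deposited tables is a kallisto abundance table made against a GRCm38 transcriptome, per the submitters' processing notes. No version of kallisto is recorded there. The authors deposited estimated counts that were not normalized, and the TPM values, per the file headers, are scaled by effective length. The library kit was not stranded, per the labels' protocols. Here estimated counts were summed per gene with GENCODE M21 (88198 transcripts, of which 2079 with 1.17% to 1.28% of the reads had no gene and were left out), the 2 samples of a unit were added and rounded to whole numbers, and TPM was recomputed from the sums. The design text speaks of 1 to 2 animals a library, and neither it nor the labels tie animals to units, so the p-values speak of the spread between units, which may be partly technical.

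Genes were tested with edgeR 4.0.16 in R 4.3.3 (TMM, filterByExpr, robust quasi-likelihood fit on group alone, Benjamini-Hochberg over 15775 genes, false discovery rate 0.05), and transcripts with limma 3.58.1 on log2(TPM + 1) at a mean TPM of at least 1, a scale that understates the change of low transcripts. CPM are scaled by TMM, and the SE is the log2 fold change over the root of the F statistic. Alternatives included DESeq2 1.42.0, other scalings and filters, a GC and length offset, a replicate block, each sequenced part alone, a B cell and myeloid covariate and leaving out each unit. The scripts were tested on simulated data. Named are all 10 members and some of their transcripts that held at least 10% of the gene at a mean TPM of at least 1. Also named are up to 6 called genes of each pathway list, at most 3 of each marker list, and the 3 genes most like a called member at a mean of at least 10 CPM. Members and lists were chosen with earlier results of these data known. Genes of the other family that missed the test, and Bcl6, Cish, Pim1, Myc and Stat5a, are named after their values were seen. Promoters are those of RefSeq, which held 9 of the 10 members.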

Additional observations from a re-analysis of the deposited data

Results flagged for a closer look

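Among 52 groups of 4 control values, 4 held a unit set apart from the others by Dixon's criterion, which chance gives in about 1 of 20 groups. For Bcl2 it was control unit 2, the lowest at 63.5 TPM, with the next control unit at 77.9 TPM; in CPM the same unit was also the lowest, at 549 CPM, and all 3 talin KO units lay below it on both scales. For a Bcl2l1 transcript of 472 bases control unit 2 was again the lowest, at 0.227 TPM with the next at 7.22 TPM. For the log2 ratio of Bmf to Mcl1 control unit 3 was the highest, at -6.17 with the next at -6.75. For the log2 ratio of Bax to Mcl1 it was control unit 3 too, at -1.74 with the next at -2.17.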

How the results depend on the processing

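The fall of Bcl2 kept its direction in all 22 alternatives, between -0.91 and -0.51, and its call in 17 of them. The value of -0.91 is that of the covariate fit, which could hardly separate group from those cells. The number of members called lower was 0 with the replicate block (Bcl2 at -0.64, edgeR adjusted p = 0.108), with the replicate block and the GC and length offset, and with the B cell and myeloid covariate, and between 0 and 1 over the fits that left out a unit. Control unit 4 has no talin KO unit of its number, so the block takes nothing from it. Leaving that unit out also ended the call of Bcl2 (-0.64, edgeR adjusted p = 0.0601). No label says that a unit number marks a shared animal or day. Correlations of the deviations were 0.02, -0.19 and -0.02 for same-numbered units and between -0.26 and 0.27 for differently numbered ones. Deviations from the means of so few units are not independent, so these values cannot decide on a pairing. Over all genes the block called 612, against 2144 without it. The number called higher was 1 with upper-quartile scaling, 2 with DESeq2, 1 with limma-voom, 1 with the first and 1 with the second sequenced part alone, and between 0 and 1 over the fits that left out a unit. Over all genes DESeq2 called 3546, the GC and length offset 1373, the replicate block with the GC and length offset 310, the covariate 7, and the fits that left out a unit 758 to 1905.

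An offset whose trend was not centred in each unit was added after seeing the data, and the centring was chosen then as well. Uncentred, it shifted the median of all genes to -0.27 and called 3325 genes, 22.2% of them higher against 52.1% without it, and 3 members lower; Bax was then at -0.34 and Bak1 at -0.26. Signs also turned for Bax with the centred offset (-0.0158), for Bak1 (-0.073) and Bcl2l11 (0.33) with the effective-length offset, for Bcl2l11 with the second part alone (0.011) and between -0.22 and 0.13 with a unit left out, and for Bcl2l1 (0.34) and Pmaip1 (-1.56) with the covariate, a fit that could hardly separate group from those cells. Of all genes called, the share higher was 63.8% without talin KO unit 2, 62.0% without control unit 1 and 70.0% under the block with the offset.

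Of the named transcripts between 0 and 1 passed with a unit left out. Signs turned for Bcl2l1-201 (-0.047 with the replicate block, -0.051 to 0.14 with a unit left out), and with a unit left out for Bak1-201 (-0.00014 to 0.34), Bid-205 (-0.0032 to 0.36) and Bid-202 (-0.35 to 0.44). Bmf-201 fell below the TPM minimum in 2 of these fits. With 24 reads of Bmf in the shallowest unit, low members carry the widest counting error.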
